A study of Mus musculus with 4 samples.

Results

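Transcripts of the enzymes that make eicosanoids were followed over 4 subsets of dendritic cells (DCs) from mouse spleen. The set comprised every probe set that the platform annotation gives to Ptgs1, Ptgs2, Ptges, Ptgis, Tbxas1, Alox5, Alox5ap, Ltc4s or Lta4h. It came to 13 of the 45101 probe sets on the array and covered 8 of the 9 genes, and Ptgs1 was not analysed here. The subsets were the CD8+CX3CR1+, CD8+CX3CR1-, CD4+ and DN DCs of the titles, DN being short in this field for double-negative (no CD4, no CD8), and the sample of each was hybridised to 1 Affymetrix GeneChip array of the mouse genome. All 4 came from spleens of Cx3cr1gfp/+ C57BL/6 mice, in which a green fluorescent protein gene marks cells with an active promoter of the chemokine receptor gene Cx3cr1. Every sample carries the label of no BMP4 treatment, and all were enriched for CD11c and sorted for high CD11c. The sources used here do not state the age of the mice or any pooling. No subset was replicated, so neither standard deviations nor p-values can be given, no difference has a replicate check, and each comparison describes 2 arrays.

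Eicosanoids are short-lived lipid signals made from arachidonic acid. Cyclooxygenases (Ptgs1, Ptgs2) turn it into prostaglandin H2, from which terminal synthases make prostaglandin E2 (Ptges), prostacyclin (Ptgis) or thromboxane (Tbxas1). In the other branch 5-lipoxygenase (Alox5), which needs its membrane partner FLAP (Alox5ap), makes leukotriene A4, and this becomes leukotriene B4 through the hydrolase Lta4h or leukotriene C4 through the synthase Ltc4s. In DCs these lipids are known to act on migration to lymph nodes, cytokine output and the priming of T cells.

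Values are MAS5 signal per probe set, on a linear scale that is the same for the 4 arrays but not for different probe sets, so levels were compared between arrays and never between genes. Signals of 55.7 or less (the floor) were treated as not separable from background. This floor is the 90th percentile of 127 probe sets of olfactory, taste and vomeronasal receptors and of keratin-associated proteins of hair. Where a gene had several probe sets, the one brightest on average (log2 scale) stood for it, and it was called detected if above the floor on at least 1 array. Where 1 of 2 arrays was under the floor, the difference is a bound ("at least N-fold"), and differences of at least 4-fold were called. Of the 8 genes, 6 were detected, as were 12608 of the 18193 named genes on the platform. Ptges and Ltc4s lay under the floor on all 4 arrays.

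The DC genes Itgax (3271 to 6415) and Zbtb46 (288 to 456) were well above the floor on every array. Cd8a was 2530 in CD8+CX3CR1+ DCs, 4742 in CD8+CX3CR1- DCs, 18.7 in CD4+ DCs and 130 in DN DCs. Cx3cr1 was 894 in CD8+CX3CR1+ DCs, 97.3 in CD8+CX3CR1- DCs, 275 in CD4+ DCs and 258 in DN DCs. Cd4 was 93.3 in CD8+CX3CR1+ DCs, 21.1 in CD8+CX3CR1- DCs, 564 in CD4+ DCs and 93.9 in DN DCs. Each marker was thus highest where a title names it, but Cx3cr1 in the CD8+CX3CR1- sample and Cd8a and Cd4 in the DN sample were also above the floor, as was Cd4 in the CD8+CX3CR1+ sample. For CD8+CX3CR1- and DN DCs another label field names a different DC type, and the titles were followed. The CD4+ sample had the largest share of probe sets above the floor (47.6%, with 41.0% to 42.5% on the others) and the highest 3'/5' signal ratio of Gapdh (11.8, with 7.56 to 8.98), which goes up as RNA breaks down. In RNA from whole sorted populations, fewer cells of a type and less RNA per cell cannot be told apart.

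The CD8+CX3CR1- sample stood at one end of the order for most of the detected enzymes. Its signal alone was the highest of the 4 arrays for Ptgis, Tbxas1 and Alox5ap and alone the lowest for Ptgs2 and Lta4h, which makes 5 of 6 detected genes. Alox5 was under the floor there and in the CD4+ sample. For Alox5ap the CD8+CX3CR1- sample was only 1.04-fold above the CD4+ sample. In other settings the count of 5 ran from 4 (probe sets averaged) to 6 (floor at the 75th percentile, or no floor). Over all detected genes the CD8+CX3CR1- sample alone was highest or lowest for 48.8%. The DN sample alone was the highest for 3 of the 6 (Ptgs2, Alox5 and Lta4h) and for 18.1% of all genes. The CD8+CX3CR1+ sample alone was the lowest for 2 (Tbxas1 and Alox5ap) and for 15.4%. The CD4+ sample stood alone at neither end for any of the 6, and alone at an end for 51.3% of all detected genes. Samples tied at the floor were not counted, and the CD4+ sample was tied lowest in this way for Ptgis and Alox5. Ptgis counted as detected through the CD8+CX3CR1- sample alone, so these counts over the detected enzymes are a description.

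**Figure D1:**
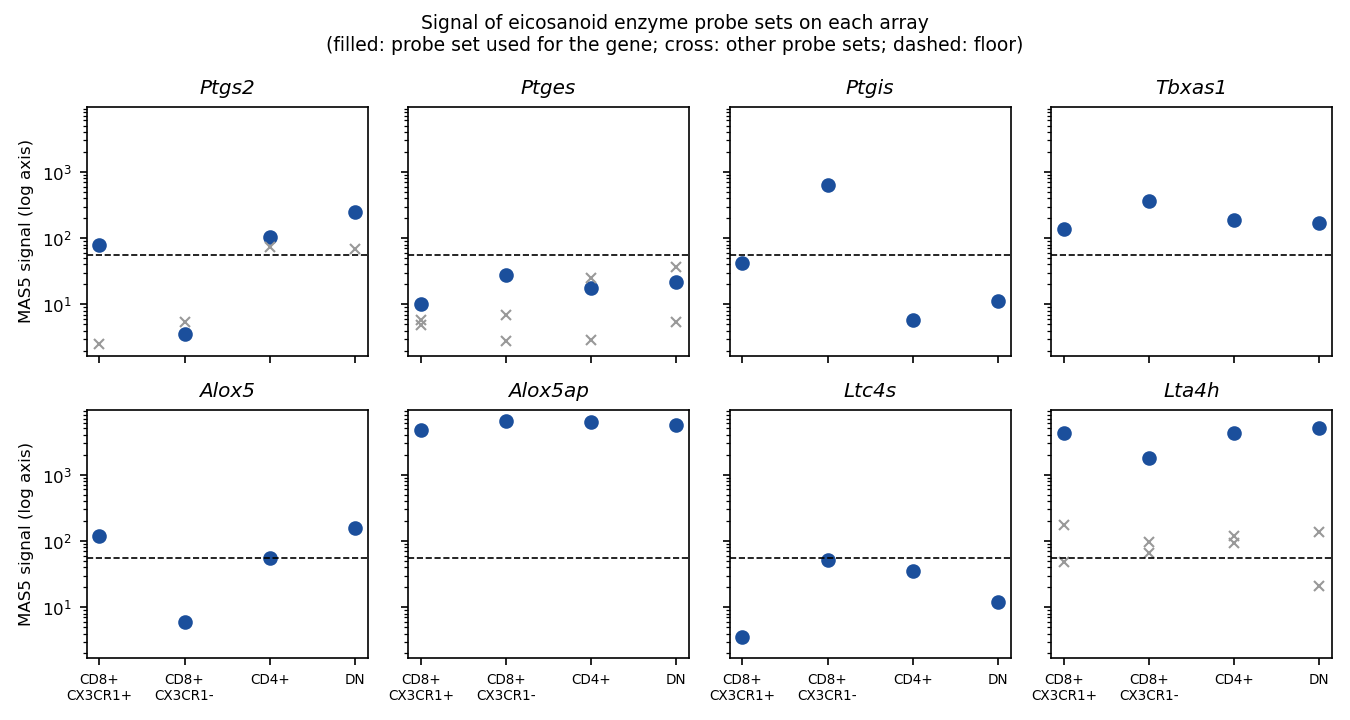
MAS5 signal (log axis) of the 13 probe sets of 8 eicosanoid enzyme genes in the CD8+CX3CR1+, CD8+CX3CR1-, CD4+ and DN samples, 1 point per probe set and array. Filled circles are the probe set used for the gene, crosses the gene's other probe sets and the dashed line the floor of 55.7. Ptgis rises above the floor only in the CD8+CX3CR1- sample, where Ptgs2 and Alox5 lie far under it.

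In the cyclooxygenase branch, Ptgis differed most. This gene encodes prostacyclin synthase, a cytochrome P450 enzyme best known from the vessel wall, where its product relaxes vessels and restrains platelets. Ptgis (probe set 1448816_at) had a signal of 42.1 in CD8+CX3CR1+ DCs, 644 in CD8+CX3CR1- DCs, 5.9 in CD4+ DCs and 11.2 in DN DCs. The CD8+CX3CR1- sample was the only one above the floor, and the 3 values under it have no order. The CD8+CX3CR1+ sample was thus at least 11.6-fold lower than the CD8+CX3CR1- sample, which was at least 11.6-fold higher than the CD4+ sample and at least 11.6-fold higher than the DN sample. Of all detected genes, 0.888% ranged at least as far over the 4 arrays. Ptgis counted as detected through the CD8+CX3CR1- sample alone, and its range is that signal over the floor. This share is thus a description and no separate result. These 3 differences were at least 4-fold under each of 8 other settings of scaling, floor and probe set choice. Ptgis has 1 probe set on the platform, so the settings of probe set choice could not change its values. No second measurement within an array was at hand.

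Prostacyclin synthase is typical of vessels and stroma. Of 9 endothelial and stromal genes, 1 lay above the floor in CD8+CX3CR1+ DCs, 1 in CD8+CX3CR1- DCs, 2 in CD4+ DCs and 3 in DN DCs. Their summed signal was 921 in CD8+CX3CR1+ DCs, 234 in CD8+CX3CR1- DCs, 314 in CD4+ DCs and 331 in DN DCs. The order of these sums rests on 1 gene, the growth factor receptor gene Kdr, at 717 in CD8+CX3CR1+ DCs, 6.3 in CD8+CX3CR1- DCs, 45.3 in CD4+ DCs and 93.8 in DN DCs. Without it the sums were 204, 227, 269 and 237 in that order. In the CD8+CX3CR1- sample the endothelial adhesion genes Pecam1 and Cdh5 were both at 11.2, under the floor. The collagen gene Col1a2 was at 65.0 there, at 61.7 in the CD4+ sample and under the floor in the others. The receptor gene Tek lay under the floor on all 4 arrays. Neutrophil genes were above the floor for 0, 3, 2 and 1 of 8 genes in the CD8+CX3CR1+, CD8+CX3CR1-, CD4+ and DN samples, with sums of 221, 323, 349 and 207. Their part in the result was not tested.

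Tbxas1 encodes thromboxane synthase, a relative of prostacyclin synthase whose product activates platelets and narrows vessels. It (probe set 1416827_at) had a signal of 137 in CD8+CX3CR1+ DCs, 364 in CD8+CX3CR1- DCs, 189 in CD4+ DCs and 170 in DN DCs. All 4 values were above the floor, with the CD8+CX3CR1- sample the highest. The CD8+CX3CR1+ sample was 2.66-fold lower than the CD8+CX3CR1- sample, which was 1.93-fold higher than the CD4+ sample and 2.14-fold higher than the DN sample, so no pair reached 4-fold. The CD8+CX3CR1+, CD4+ and DN samples lay within 1.38-fold of each other. The summed signal of 7 megakaryocyte and platelet genes, cells rich in thromboxane synthase, was 934 in CD8+CX3CR1+ DCs, 265 in CD8+CX3CR1- DCs, 579 in CD4+ DCs and 647 in DN DCs. The integrin gene Itgb3 set much of their spread, and without it they were 276, 218, 310 and 278 in that order. Above the floor were 3, 2, 3 and 4 of the 7. The integrin gene Itga2b was highest in the CD8+CX3CR1- sample, at 128, with 87.6 to 121 in the others. Itgb3 was under the floor there, at 47.2, with 268 to 658 in the others. The platelet gene Gp1bb was at 7.5 there, with 34.8 to 77.8 in the others, and Pf4 at 57.4, with 55.4 to 110.5. Ppbp, Gp9 and Treml1 lay under the floor on all 4 arrays. The part of such cells in the Tbxas1 result was not tested.

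Ptgs2, the inducible cyclooxygenase, went the other way. Its probe set with the higher signal (1417262_at) was at 78.8 in CD8+CX3CR1+ DCs, 3.6 in CD8+CX3CR1- DCs, 104 in CD4+ DCs and 248 in DN DCs. The DN sample was highest and the CD8+CX3CR1- sample alone was under the floor. The CD8+CX3CR1- sample was at least 4.46-fold lower than the DN sample, the CD4+ sample was 2.39-fold lower than the DN sample and the CD8+CX3CR1+ sample 3.15-fold lower than the DN sample. The second probe set (1417263_at) was at 2.5 in CD8+CX3CR1+ DCs, 5.4 in CD8+CX3CR1- DCs, 73.8 in CD4+ DCs and 68.2 in DN DCs. Both probe sets thus lay under the floor in the CD8+CX3CR1- sample and above it in the CD4+ and DN samples, but they differ in the CD8+CX3CR1+ sample, and the second had the CD4+ sample above the DN sample. The 4-fold call for Ptgs2 was kept in 5 of 8 other settings. With both probe sets averaged, the difference between the CD8+CX3CR1- and DN samples was -1.22 on the log2 scale, under 4-fold, and that between the CD4+ and DN samples -0.57, under 2-fold.

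Ptges, the inducible prostaglandin E synthase, was measured by 3 probe sets, and their 12 values lay between 2.8 and 36.0, all under the floor. No difference between subsets can be given for it.

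In the lipoxygenase branch, Alox5ap was the most even of the detected enzymes. FLAP, its product, presents arachidonic acid to 5-lipoxygenase. Alox5ap (probe set 1452016_at) had a signal of 4808 in CD8+CX3CR1+ DCs, 6440 in CD8+CX3CR1- DCs, 6205 in CD4+ DCs and 5700 in DN DCs. All 4 lay within 1.34-fold, and 74.4% of all detected genes ranged at least as far. The order of the CD4+ and DN samples was turned by equal-median scaling (log2 difference -0.16, against 0.12 as deposited).

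Alox5, the 5-lipoxygenase itself, had 1 probe set (1441962_at), at 117 in CD8+CX3CR1+ DCs, 6.0 in CD8+CX3CR1- DCs, 54.3 in CD4+ DCs and 159 in DN DCs. The CD8+CX3CR1+ and DN samples were above the floor and the CD4+ sample just under it. The CD8+CX3CR1+ sample was at least 2.10-fold higher than the CD8+CX3CR1- sample and at least 2.10-fold higher than the CD4+ sample, and the CD8+CX3CR1- and CD4+ samples were each at least 2.85-fold lower than the DN sample. None of these bounds reached 4-fold, and the low signal leaves the size of each difference unknown.

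Lta4h encodes leukotriene A4 hydrolase, which makes the neutrophil attractant leukotriene B4. Its brightest probe set (1434790_a_at) had a signal of 4204 in CD8+CX3CR1+ DCs, 1785 in CD8+CX3CR1- DCs, 4225 in CD4+ DCs and 5151 in DN DCs. The CD8+CX3CR1- sample was the lowest and the other 3 lay within 1.23-fold. The CD8+CX3CR1+ sample was 2.35-fold higher than the CD8+CX3CR1- sample, which was 2.37-fold lower than the CD4+ sample and 2.89-fold lower than the DN sample. A second probe set (1426807_at) had the same array lowest, with 177 in CD8+CX3CR1+ DCs, 65.6 in CD8+CX3CR1- DCs, 118 in CD4+ DCs and 137 in DN DCs. The third (1453528_at) ran differently, at 48.6 in CD8+CX3CR1+ DCs, 97.9 in CD8+CX3CR1- DCs, 92.9 in CD4+ DCs and 20.8 in DN DCs, 2 of these under the floor. With the 3 averaged, the difference between the CD8+CX3CR1- and DN samples shrank to -0.12 (log2), against -1.53 for the brightest.

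Ltc4s, which joins leukotriene A4 to glutathione at the head of the cysteinyl leukotriene branch, had 1 probe set (1419692_a_at). It was at 3.5 in CD8+CX3CR1+ DCs, 51.1 in CD8+CX3CR1- DCs, 35.7 in CD4+ DCs and 12.1 in DN DCs, all under the floor, so no difference is given. Genes of mast cells and basophils, known sources of cysteinyl leukotrienes, were above the floor for 0 of 8 in the CD8+CX3CR1+ and CD8+CX3CR1- samples, 3 in the CD4+ sample and 1 in the DN sample.

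Ptgs2, Alox5 and Lta4h are also active in monocytes and macrophages, and the markers of these cells moved in both directions between the subsets. Of 6 monocyte genes, 4 lay above the floor in CD8+CX3CR1+ DCs, 3 in CD8+CX3CR1- DCs, 4 in CD4+ DCs and 4 in DN DCs, with sums of 12405, 2905, 14749 and 10276. Most of each sum but that of the CD8+CX3CR1- sample came from Csf1r, the receptor of macrophage colony-stimulating factor, which was at 11291 in CD8+CX3CR1+ DCs, 498 in CD8+CX3CR1- DCs, 13894 in CD4+ DCs and 9142 in DN DCs. Without Csf1r the sums were 1114, 2407, 855 and 1134, so that the CD8+CX3CR1- sample had the highest, through Treml4 (2124 there, and 196 to 456 in the others). Of the remaining monocyte genes, Ccr2 was at 225 in that sample, with 143 to 705 in the others. Ace lay under the floor in it alone, and Vcan and F13a1 lay under the floor on all 4 arrays. For 10 red pulp macrophage genes the sums were 2412, 996, 4226 and 2198, with 8, 5, 7 and 5 genes above the floor. The macrophage gene Adgre1 made up most of the CD4+ and DN sums, and without it the sums were 1834, 853, 1158 and 506, the DN sample lowest. The adhesion gene Vcam1 (513) and the heme oxygenase gene Hmox1 (71.6) were highest in the CD8+CX3CR1- sample. Adgre1 (143) and the complement gene C1qb (60.0) were lowest there. C1qa, C1qc, Mertk, Slc40a1 and Cd163 lay under the floor there, but none of them in that sample alone. The defining factor gene Spic lay between 56.9 and 79.6 on all 4 arrays, close to the floor. The part of such cells in the 3 enzyme results was not tested.

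**Figure D2:**
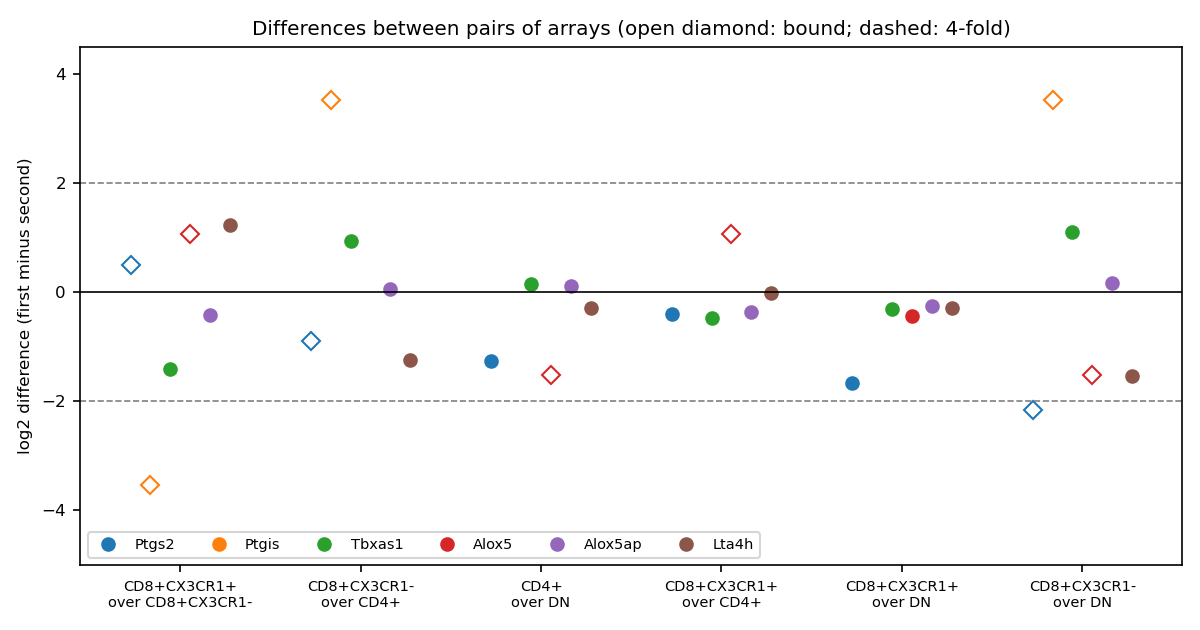
Log2 difference in signal between the first and the second array of each of 6 pairs (x axis) for the 6 detected enzymes, after the floor. Circles are measured differences, open diamonds bounds with 1 array under the floor, and dashed lines mark 4-fold. Beyond the dashed lines lie only Ptgis, in the 3 pairs with the CD8+CX3CR1- sample, and Ptgs2 in CD8+CX3CR1- over DN.

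By pair, the called differences of the enzymes all involved the CD8+CX3CR1- sample. In CD8+CX3CR1+ over CD8+CX3CR1-, 0 of 6 detected enzymes were at least 4-fold higher and 1 (Ptgis) was lower, where 1.67% and 1.15% of all detected genes were, 2.82% in all. In CD8+CX3CR1- over CD4+, 1 was higher (Ptgis) and 0 were lower, where 1.18% and 1.8% of all genes were, 2.98% in all. In CD8+CX3CR1- over DN, 1 was higher (Ptgis) and 1 lower (Ptgs2), where 0.738% and 1.28% of all genes were, 2.02% in all. None was called in CD4+ over DN, CD8+CX3CR1+ over CD4+ or CD8+CX3CR1+ over DN, where 0.254%, 0.769% and 0.412% of all genes were called, so a count of 0 of 6 is near the background there. The median log2 difference of the 6 was 0.04 in CD8+CX3CR1+ over CD8+CX3CR1- and 0.03 in CD8+CX3CR1- over CD4+, where the medians of all detected genes were 0 and -0.01. It was -0.67 in CD8+CX3CR1- over DN, where that of all genes was 0. The pairs share arrays, so their counts are not independent of each other. Ptgis is among the 6 through the CD8+CX3CR1- sample alone, so the counts with it are a description.

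At 2-fold, 4 of the 6 enzymes differed in CD8+CX3CR1+ over CD8+CX3CR1-, with Alox5 and Lta4h higher and Ptgis and Tbxas1 lower, and 13.5% of all detected genes did. In CD8+CX3CR1- over DN it was 5 of 6, with Ptgis and Tbxas1 higher and Ptgs2, Alox5 and Lta4h lower, and 10.9% of all genes. With its probe sets averaged, Lta4h was under 2-fold in both pairs, at log2 differences of 0.55 and -0.12. Averaged, it was also under 2-fold in CD8+CX3CR1- over CD4+ (-0.67), where its brightest probe set was counted. The other pairs had 2 (CD8+CX3CR1- over CD4+, 15.9% of all genes), 2 (CD4+ over DN, 7.57%, among them Ptgs2, which is under 2-fold with its probe sets averaged), 1 (CD8+CX3CR1+ over CD4+, 9.36%) and 1 (CD8+CX3CR1+ over DN, 5.91%). Within genes, log2 differences varied between probe sets with a root mean square SD of 0.42 to 0.55 in the 6 pairs, and this leaves out the variation between mice and between sorts.

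**Figure D3:**
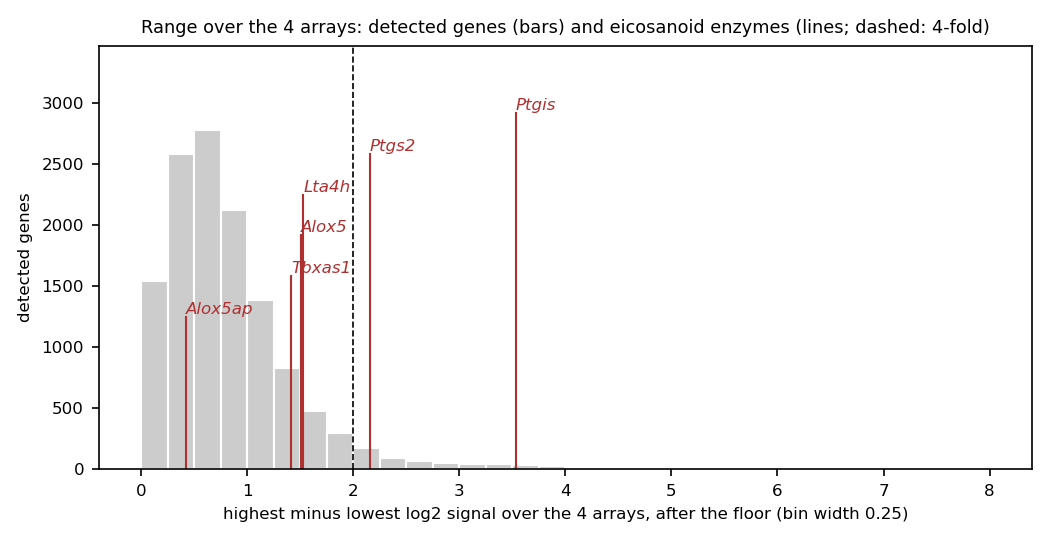
Number of detected genes (bars, of 12608) by range, the highest minus the lowest log2 signal over the 4 arrays after the floor. Red lines mark the 6 detected enzymes, at heights chosen for legibility, and the dashed line marks 4-fold. Alox5ap sits in the bulk at 0.42, Tbxas1, Alox5 and Lta4h lie between 1.41 and 1.53, and Ptgs2 (2.16) and Ptgis (3.53) are past 4-fold.

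Over the 4 arrays, 2 of the 6 detected enzymes ranged at least 4-fold, as did 4.66% of all detected genes. The median range of the 6 was 2.87-fold, and that of all detected genes 1.61-fold. Where at least 1 array lay under the floor (Ptgis, Ptgs2, Alox5) the range is itself a bound. Ptgis is among the 6 through the CD8+CX3CR1- sample alone, so these values are a description.

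The bases before the start site are shown for the enzymes that were low in the CD8+CX3CR1- sample (Ptgs2, Lta4h, Alox5) and for Tbxas1, which was high there. Sequences are from RefSeq (GRCm38.p6), where 7 of the 9 genes matched, and each gives the 250 bases before the start, 5′ to 3′ on the gene's own strand. Capitals mark matches, on either strand, to any of 6 motifs. The GC box, bound by Sp1-type factors, was searched as GGGCGG. The TATA box, which places the start of transcription in many inducible genes, was searched as TATAAA. For AP-1, the Fos and Jun dimer, the letters were TGANTCA. For PU.1, an Ets factor of myeloid cells and DCs, they were GAGGAAGT. The cyclic AMP response element was searched as TGACGTCA, and the NF-kappaB motif was the last.
Ptgs2, chr1:150099781-150100030, plus strand: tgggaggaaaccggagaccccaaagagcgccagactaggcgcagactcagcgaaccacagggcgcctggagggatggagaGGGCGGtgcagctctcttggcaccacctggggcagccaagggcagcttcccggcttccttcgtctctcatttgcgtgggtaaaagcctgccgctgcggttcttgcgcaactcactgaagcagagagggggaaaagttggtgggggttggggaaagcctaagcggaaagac
Lta4h, chr10:93453146-93453395, plus strand: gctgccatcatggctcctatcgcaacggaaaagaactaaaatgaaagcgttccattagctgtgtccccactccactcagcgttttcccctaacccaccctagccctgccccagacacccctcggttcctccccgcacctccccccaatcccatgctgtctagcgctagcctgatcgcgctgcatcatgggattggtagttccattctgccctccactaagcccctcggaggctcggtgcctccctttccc
Alox5, chr6:116461179-116461428, minus strand: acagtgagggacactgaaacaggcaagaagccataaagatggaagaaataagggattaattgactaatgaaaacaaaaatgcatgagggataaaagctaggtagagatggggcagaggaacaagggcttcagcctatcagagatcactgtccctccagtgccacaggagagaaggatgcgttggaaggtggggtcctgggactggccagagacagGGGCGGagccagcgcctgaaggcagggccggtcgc
Tbxas1, chr6:38918736-38918985, plus strand: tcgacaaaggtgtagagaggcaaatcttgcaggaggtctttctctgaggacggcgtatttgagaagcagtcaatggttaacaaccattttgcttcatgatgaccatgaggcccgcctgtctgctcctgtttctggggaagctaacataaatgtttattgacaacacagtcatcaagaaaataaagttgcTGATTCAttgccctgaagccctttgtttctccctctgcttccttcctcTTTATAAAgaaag

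A GC box stood in the Ptgs2 window at -170 to -165 and in the Alox5 window at -35 to -30, counted from the start site, and 32.7% of 32851 promoter windows of this length hold one. The Tbxas1 window held an AP-1 match at -61 to -55 (6.75% of all windows) and overlapping TATA matches on both strands between -13 and -6 (12.4%). The Lta4h window held none of these letters. The 3 enzymes that were low in the CD8+CX3CR1- sample shared no motif that all of their windows held. The PU.1-type motif, found in 2.44% of all windows, the cyclic AMP response element (1.55%) and the NF-kappaB motif (7.25%) were in none of the 4. Bases outside these windows were not searched, so such motifs may lie elsewhere at these genes.

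The genes nearest to Ptgis in pattern were Fndc7, Igf2r and Cd207. Likeness was the Euclidean distance between log2 signals over the 4 arrays, after the floor and centred on each gene's mean, and came to 0.02, 0.14 and 0.15. Like Ptgis, each was above the floor in the CD8+CX3CR1- sample alone, at 657 for Fndc7, 576 for Igf2r (the receptor of insulin-like growth factor II and mannose 6-phosphate) and 725 for Cd207, which encodes the lectin langerin. On the other 3 arrays their signals were between 4.9 and 43.9. With 3 of 4 values set to the floor, this distance rests on the height of 1 array.

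Nearest to Ptgs2 were Ggh, Fosl2 and Crat, at distances of 0.40, 0.41 and 0.45. Fosl2, an AP-1 subunit gene, was at 274 in CD8+CX3CR1+ DCs, 134 in CD8+CX3CR1- DCs, 314 in CD4+ DCs and 647 in DN DCs. Ggh, a folate hydrolase gene, was at 114, 83.9, 148 and 263 in that order, and Crat, which encodes carnitine acetyltransferase, at 93.5, 47.5, 106 and 191. All 3 had the DN sample highest and the CD8+CX3CR1- sample lowest. They were chosen for their likeness to Ptgs2, so this shared order is no separate result.

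**Figure D4:**
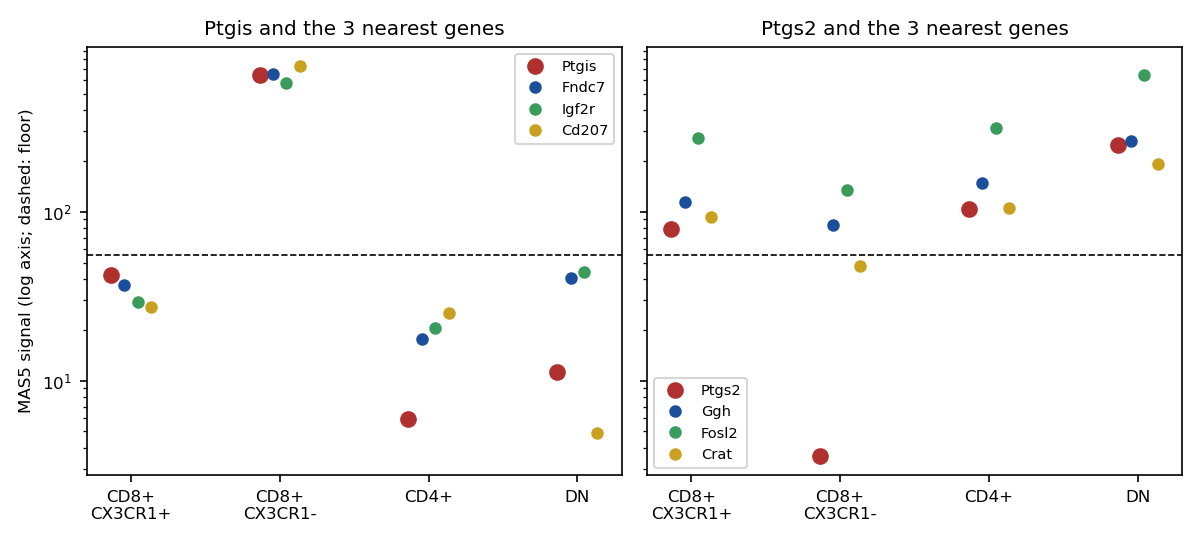
MAS5 signal (log axis) of Ptgis (left) and Ptgs2 (right) with the 3 genes nearest in pattern, in the CD8+CX3CR1+, CD8+CX3CR1-, CD4+ and DN samples; the dashed line is the floor. The 4 genes on the left pass the floor in the CD8+CX3CR1- sample alone, and the 4 on the right are highest in the DN sample. The nearest genes were chosen by this likeness.

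Around the 9 enzymes, 64 listed genes of the same pathway covered arachidonate release and recycling, other synthases, receptors, breakdown and transport. Of these, 55 had a probe set, 41 were detected, and 6 of the 41 ranged at least 4-fold over the arrays, as did 4.66% of all detected genes. The 6 were Ptger3, Fpr2, Lpcat2, Hpgd, Ptgr1 and Ggt5. At 4-fold, CD8+CX3CR1+ over CD8+CX3CR1- had 3 higher and 0 lower of 41 (2.82% of all detected genes were called, either way), CD8+CX3CR1- over CD4+ had 0 and 5 (2.98%), and CD8+CX3CR1- over DN had 0 and 2 (2.02%). CD4+ over DN had 1 higher (0.254%), CD8+CX3CR1+ over CD4+ had 1 higher (0.769%) and CD8+CX3CR1+ over DN had 0 either way (0.412%). Called pathway genes were thus on the low side of the CD8+CX3CR1- sample in each of its 3 pairs, while over all detected genes that side held 210 of 355, 227 of 376 and 162 of 255 calls. Equal-median scaling turned the balance of all genes in CD8+CX3CR1- over CD4+, with 158 of 394 calls on the low side, and left 3 pathway calls there in place of 5.

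Among receptors, Ptger3, a receptor of prostaglandin E2 (EP3), was at 275 in CD8+CX3CR1+ DCs, 29.8 in CD8+CX3CR1- DCs, 904 in CD4+ DCs and 738 in DN DCs. Only the CD8+CX3CR1- sample was under the floor. The CD8+CX3CR1+ sample was at least 4.93-fold higher than it, and it was at least 16.2-fold lower than the CD4+ sample and at least 13.3-fold lower than the DN sample. A second Ptger3 probe set lay under the floor on all 4 arrays. Ptger4, the EP4 receptor gene, was at 928 in CD8+CX3CR1+ DCs, 1284 in CD8+CX3CR1- DCs, 733 in CD4+ DCs and 1153 in DN DCs, within 1.75-fold. Ptger2 (EP2) was above the floor in the CD8+CX3CR1- sample alone, at 134. Of the leukotriene and lipoxin receptors, Fpr2 (a formyl peptide receptor that also binds lipoxin A4) was at 208 in the CD8+CX3CR1+ sample and 29.0 in the CD8+CX3CR1- sample. It was at 227 in the CD4+ sample and 50.8 in the DN sample, so the CD4+ sample was at least 4.08-fold higher than the DN sample. Ltb4r1, the high-affinity leukotriene B4 receptor gene, passed the floor in the CD4+ sample (131) and the DN sample (99.0).

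Among genes of breakdown and conversion, 3 of 5 detected ranged at least 4-fold, against the 4.66% of all detected genes. Ptgr1, a reductase that inactivates leukotriene B4 and prostaglandin metabolites, was at 779 in CD8+CX3CR1+ DCs, 91.9 in CD8+CX3CR1- DCs, 79.2 in CD4+ DCs and 264 in DN DCs. The CD8+CX3CR1+ sample was the highest, 8.47-fold above the CD8+CX3CR1- sample and 9.83-fold above the CD4+ sample. Ggt5, the transpeptidase that turns leukotriene C4 into D4, was at 430 in CD8+CX3CR1+ DCs, 92.5 in CD8+CX3CR1- DCs, 973 in CD4+ DCs and 414 in DN DCs. Its 2 other probe sets also had the CD8+CX3CR1- sample lowest, at 41.0 and 21.8. Hpgd, the dehydrogenase that begins prostaglandin breakdown, was at 373 in CD8+CX3CR1+ DCs, 173 in CD8+CX3CR1- DCs, 918 in CD4+ DCs and 402 in DN DCs, and a second Hpgd probe set lay under the floor throughout. The CD8+CX3CR1- sample was 5.32-fold lower than the CD4+ sample for Hpgd and 10.5-fold lower for Ggt5.

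For the supply of arachidonate, 7 phospholipase-related genes were detected and none ranged 4-fold. Pla2g4a, the cytosolic phospholipase A2 that frees arachidonic acid, was at 113 in CD8+CX3CR1+ DCs, 73.4 in CD8+CX3CR1- DCs, 186 in CD4+ DCs and 244 in DN DCs. Its order from low to high was that of the brighter Ptgs2 probe set but not of the second. Lpcat2, an acyltransferase of phospholipid remodelling, was at 294 in CD8+CX3CR1+ DCs, 138 in CD8+CX3CR1- DCs, 564 in CD4+ DCs and 350 in DN DCs, 4.07-fold lower in the CD8+CX3CR1- sample than in the CD4+ sample. Of 6 other lipoxygenases, 2 were detected, Alox8 and Aloxe3, both with no signal above 66.0. The glutathione transferase genes Mgst2 and Mgst3, whose products can also make leukotriene C4, were at 80.9 or less on every array.

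**Figure D5:**
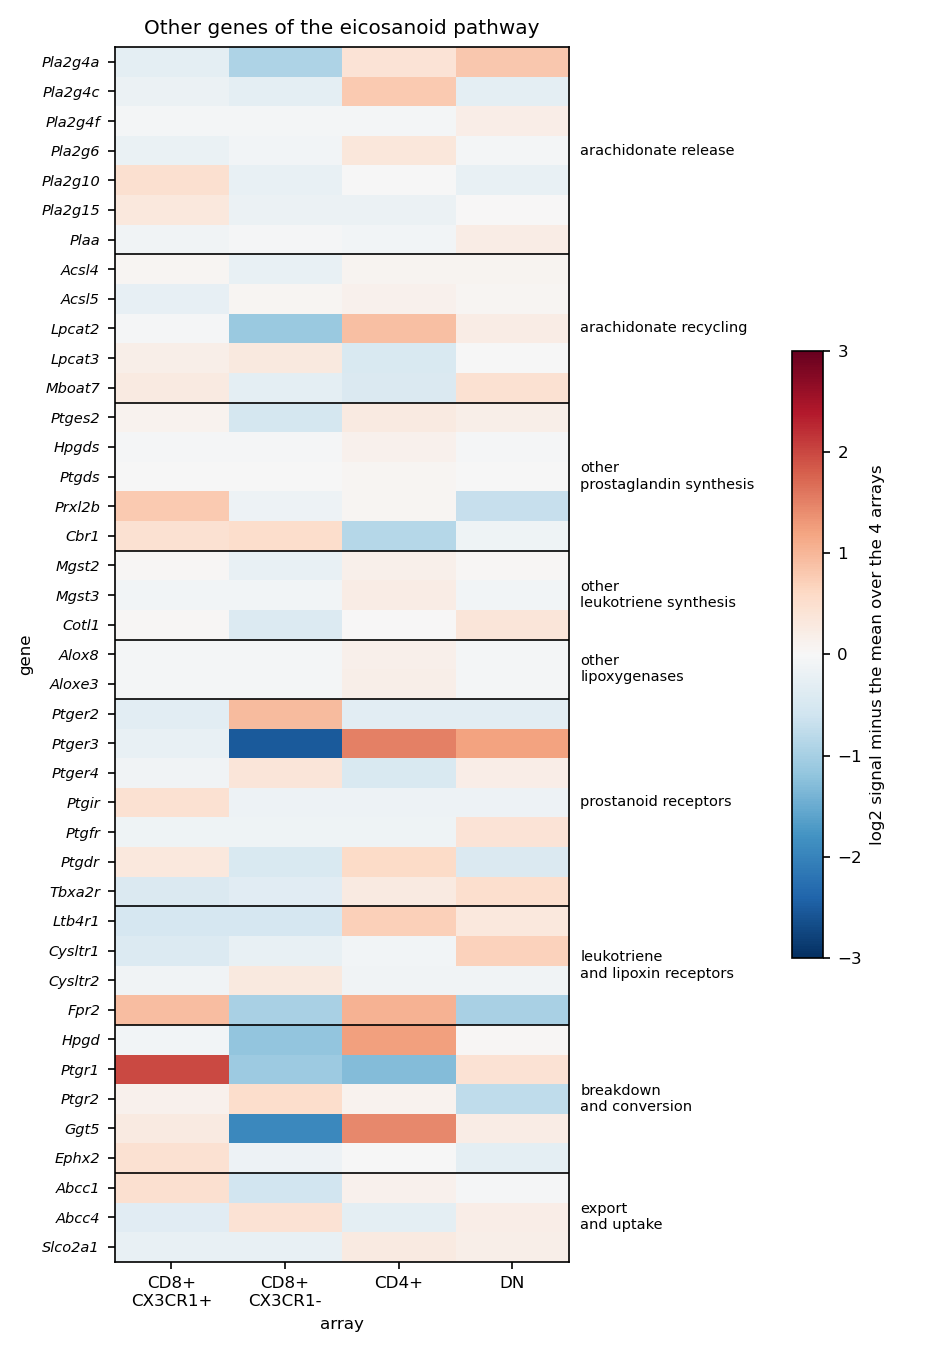
Log2 signal after the floor, minus its mean over the 4 arrays, for the 41 detected pathway genes other than the enzymes of the main set, grouped by role; red is above and blue below a gene's own mean. Ptger3 and Ggt5 are lowest in the CD8+CX3CR1- sample, and Ptgr1 is highest in the CD8+CX3CR1+ sample.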

How the data were processed

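Biotin-labelled total RNA of 4 sorted DC subsets was hybridised to 1 array each, grouped by sample title. Per the submitters' processing notes, MAS5 (version not given in the sources used here) produced the deposited intensity values. They are linear signals that the authors had scaled, with a mean of 150.0 on each array after trimming 2% at each end, which hides differences in RNA per cell. The number of arrays limits the precision. Python 3.11.15, numpy 2.4.6 and pandas 2.3.3 were used. Through the platform annotation 34945 probe sets have 1 gene symbol and 932 have several, which were not named. Of the former, 99.4% had an Entrez identifier in the mouse RefSeq table (GRCm38.p6), and 0 symbols changed. Lower values were set to the floor, 6 pairs of arrays were compared on the log2 scale, and no test was possible. These calculations were checked on simulated arrays with known changes. Named were the enzymes, pathway genes ranging at least 4-fold (others described were chosen after their values were seen), sort markers, genes of the cell type lists and, for enzymes ranging at least 4-fold, the 3 nearest genes without RIKEN, Gm or LOC names. The members and lists were chosen with earlier results of these data known. Alternatives were equal-median and quantile scaling, other floors or none, averaged probe sets, no _x_at, _s_at or _a_at probe sets, and a 2-fold threshold.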

Additional observations from a re-analysis of the deposited data

How the results depend on the processing

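Across 8 alternatives, each changing 1 choice, the differences of Ptgis that passed 4-fold did so in 8 of 8. Those of probe set choice could not change them, as Ptgis has 1 probe set. The log2 differences ran from -3.94 to -3.14 in CD8+CX3CR1+ over CD8+CX3CR1-. They ran from 3.14 to 6.77 in CD8+CX3CR1- over CD4+ and from 3.14 to 5.85 in CD8+CX3CR1- over DN. Ptgs2 in CD8+CX3CR1- over DN passed in 5 of 8, so that this pair held 1 called enzyme in place of 2 with the floor at the 95th percentile, with each array's own floor and with probe sets averaged. Without a floor, signals within the background entered as they are, and the counts were 4 (CD8+CX3CR1+ over CD8+CX3CR1-), 3 (CD8+CX3CR1- over CD4+), 4 (CD8+CX3CR1- over DN) and 2 (CD8+CX3CR1+ over CD4+). A 2-fold threshold gave 4, 2, 5 and 1 in the same pairs, 2 in CD4+ over DN and 1 in CD8+CX3CR1+ over DN. The log2 range of Ptgis was 4.18 with the floor at the 75th percentile and 6.77 without one. That of Ptgs2 was 2.81 and 6.11, and that of Alox5 2.16 and 4.72. With probe sets averaged the range was 1.22 for Ptgs2 and 0.67 for Lta4h, whose probe sets disagree. Ltc4s was detected in addition with the floor at the 75th percentile. Equal-median scaling moved the median of all genes to 0.15 in CD8+CX3CR1- over CD4+, -0.12 in CD4+ over DN and 0.18 in CD8+CX3CR1+ over CD4+, and the share of calls that were higher was 59.9%, 12.5% and 81.1% there, against 39.6%, 28.1% and 51.5% as deposited. Under this scaling 3 pathway genes were called in CD8+CX3CR1- over CD4+, in place of 5, as with probe sets averaged or without the _x_at, _s_at and _a_at ones. The alternatives for pathway genes, single differences and array order were chosen after seeing the data. No paired analysis was possible because each subset has 1 array. Signals near the floor limit what can be said of Alox5, Ptgs2, Ptges and Ltc4s.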
